A study of Mus musculus with 2 samples.

Results

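The 10 genes described here encode proteins that hold keratinocytes together: the classical cadherins Cdh1 (E-cadherin) and Cdh3 (P-cadherin), the desmosomal cadherins Dsc2, Dsc3, Dsg2 and Dsg3, the armadillo proteins Jup (plakoglobin), Pkp1 and Pkp3, and the plakin Dsp (desmoplakin). They were taken by symbol from the 31053 genes of the count tables, and each symbol occurred in 1 row. The rule uses no measured value, but the genes were chosen with earlier results of these data known. Classical cadherins bind their like on the neighbouring cell and are tied to actin through catenins at adherens junctions. Desmosomal cadherins bind in the same way, but plakoglobin, plakophilins and desmoplakin link them to keratin filaments, which gives the epidermis its resistance to mechanical stress. In skin, P-cadherin is known as a protein of basal and hair germ cells, and desmoglein and desmocollin isoforms change as keratinocytes leave the basal layer.

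Back skin cells of 2 mice, a control and a miR-205-inducible animal, each gave 1 droplet single-cell RNA-seq library at postnatal day 53. In the inducible mouse a Krt14 promoter drives the doxycycline-dependent activator of a miR-205 transgene, so induction is directed to keratinocytes, and the mouse ate doxycycline chow for 4 days, starting at postnatal day 49. Both mice carried a K14-H2BGFP allele and were matched for gender. The strain is labelled C57BL/6. The study's methods give FVB for the transgenic founders, and the control is labelled no further than as a control. The extraction protocol has both mice fed doxycycline and the sample label calls the control untreated, so doxycycline and miR-205 cannot be told apart if the label is right. Cells were sorted to give epidermal, hair follicle and dermal cells at 3:5:2, and the methods state that both libraries were prepared on the same chip.

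The control library held 4545 barcodes with 55465594 unique molecular identifiers (UMIs) and the induced library 4264 barcodes with 49733560 UMIs. The filter on cells left 3936 and 3628 of them, with medians of 12198.5 and 11752.5 UMIs, and 5 barcodes were shared between the cells kept. Clustering, from which all 10 genes had been withheld, gave 24 clusters, and 14 populations were epithelial. A population was called "-like" where enough of its marker genes were raised against the other cells and stood among its leading genes, and otherwise kept its cluster number. The summed marker levels did not always go with the names. The inner bulge markers summed to 2077 and 2076 CPM (UMIs per 1000000) in inner bulge-like cells of the control and the induced library, below the 3413 and 3336 CPM of cells with markers of bulge stem cells (HF-SC-like), and the HF-SC markers to 14464 and 16887 CPM, above the 12288 and 15958 CPM of HF-SC-like cells. Cluster 6 (200 control and 211 induced cells) had the highest mean log2 fold over the hair germ markers, 2.29, among clusters not low in Krt14. Lgr5 was among its leading genes, but it did not meet the rule for that name. Its summed hair germ markers were lower than those of HF-SC-like cells in both libraries. The choice left out Krt14-poor epithelial populations such as inner bulge-like cells (342 and 226 CPM of Krt14) and cluster 11 (1927 and 1780 CPM). The upper HF-like population was led by cornification genes such as Rptn, Flg and Flg2 beside its follicle markers. With 1 mouse per group no difference between the groups could be tested, and every interval below is an exact 95% interval for counting error only, which leaves out variation between mice.

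The induced agent is shown first because its seed is used in a later comparison. Its seed, bases 2 to 8, is in capitals. In the RefSeq table of build GRCm38.p6 the mature strand lies at chr1:193507503-193507524 on the minus strand and is 22 bases long.
mmu-miR-205-5p: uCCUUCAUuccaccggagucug

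Levels are given in CPM, the UMIs of a gene per 1000000 UMIs of its population. Because the assay counts tags from the 3' end of transcripts, and priming differs between genes, levels are compared between populations and not between genes. Over the kept cells of both libraries the counts ran from 278 UMIs for Dsc2 to 67438 for Dsp. Cdh3 (2969), Dsg2 (4251) and Dsg3 (8067) were sparse beside Pkp1 (20203), Pkp3 (21174), Cdh1 (33671), Dsc3 (37050) and Jup (53023). Dsc2 was therefore too sparse for comparisons in most populations.

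Of the classical cadherins, Cdh1 was the most evenly spread. It stood at 475 CPM in the control and 536 CPM in the induced library in upper HF-like cells, and at 193 and 169 CPM in cluster 6. These were the highest and lowest epithelial populations by their means over the libraries. In the control library alone cluster 8 was above upper HF-like cells (516 CPM), and in the induced library cluster 14 was below cluster 6 (152 CPM). The means of upper HF-like cells and cluster 6 differed 2.80-fold. For Cdh1, 12 of the 13 neighbouring pairs in the order of levels had overlapping ranges over the 2 libraries, so most of that order was not resolved. Cdh3 had another order, with cluster 6 on top by its mean over the libraries, at 56.1 and 67.6 CPM. The range of cluster 6 overlapped that of cluster 8 (59.2 and 53.8 CPM), which was higher in the control library. Basal-like cells of the interfollicular epidermis (IFE) and HF-SC-like cells lay close together for Cdh3, at 42.8 and 38.3 CPM in the first and 41.0 and 37.3 CPM in the second. Cdh3 was scarce in the differentiated populations, at 12.4 and 7.04 CPM in IFE suprabasal-like, 7.98 and 8.51 CPM in upper HF-like and 7.05 and 11.9 CPM in inner bulge-like cells.

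The desmosomal cadherins divided by population. Dsg3, the antigen of pemphigus vulgaris, was highest in inner bulge-like cells, at 244 and 194 CPM, and HF-SC-like cells, at 189 and 159 CPM, against 133 and 111 CPM in IFE basal-like cells. The 2 libraries' ranges did not overlap between any of these 3 populations. Cluster 6 (45.7 and 42.9 CPM) and upper HF-like cells (42.4 and 40.8 CPM) were among the lowest, at ranks 11 and 12 of 14. Dsg2, the most widely expressed desmoglein of epithelia, had another order. It was highest in IFE basal-like cells, at 112 and 83.5 CPM, and lowest in HF-SC-like cells, at 11.3 and 7.63 CPM. The means of these 2 populations differed 10.3-fold. The lowest rank was not resolved, since the range of HF-SC-like cells overlapped that of IFE suprabasal-like cells (13.9 and 7.74 CPM). Inner bulge-like (15.7 and 11.9 CPM) and upper HF-like cells (16.0 and 15.4 CPM) were low in Dsg2 as well. Cycling-like cells (98.3 and 69.5 CPM) and cluster 12 (85.8 and 63.9 CPM) followed IFE basal-like cells in the order for Dsg2, with overlapping ranges.

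Dsc3, the main desmocollin of the lower epidermis, was highest in IFE suprabasal-like cells, at 736 and 707 CPM, followed by HF-SC-like cells at 584 and 593 CPM. Dsc2 was found at 9.40 and 8.82 CPM in inner bulge-like cells, from 12 and 26 UMIs, and at a mean of under 5 CPM in every other epithelial population. The related gene Dsc1, a desmocollin of the most differentiated layers, gave 430 and 323 UMIs in upper HF-like cells, 5 and 14 in IFE suprabasal-like cells and none in IFE basal-like cells.

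Among the proteins that couple desmosomal cadherins to keratin, Dsp and Jup had the most similar patterns. Dsp was highest in HF-SC-like cells, at 1321 and 1291 CPM, and Jup in inner bulge-like cells, at 1264 and 1022 CPM. Both were lowest in cluster 14, which carried sebaceous gland markers, with Dsp at 246 and 165 CPM and Jup at 246 and 173 CPM. Pkp1, the plakophilin of differentiating epidermis, differed from them. It was highest in upper HF-like cells at 457 and 561 CPM. Cluster 14 aside, its mean over the libraries was lowest in HF-SC-like cells, at 113 and 81.4 CPM. Their range overlapped that of cluster 6 (104 and 101 CPM). Pkp3, a plakophilin present in most epithelia, varied least of these, from 328 and 318 CPM in inner bulge-like cells to 118 and 96.4 CPM in cluster 14.

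**Figure D1:**
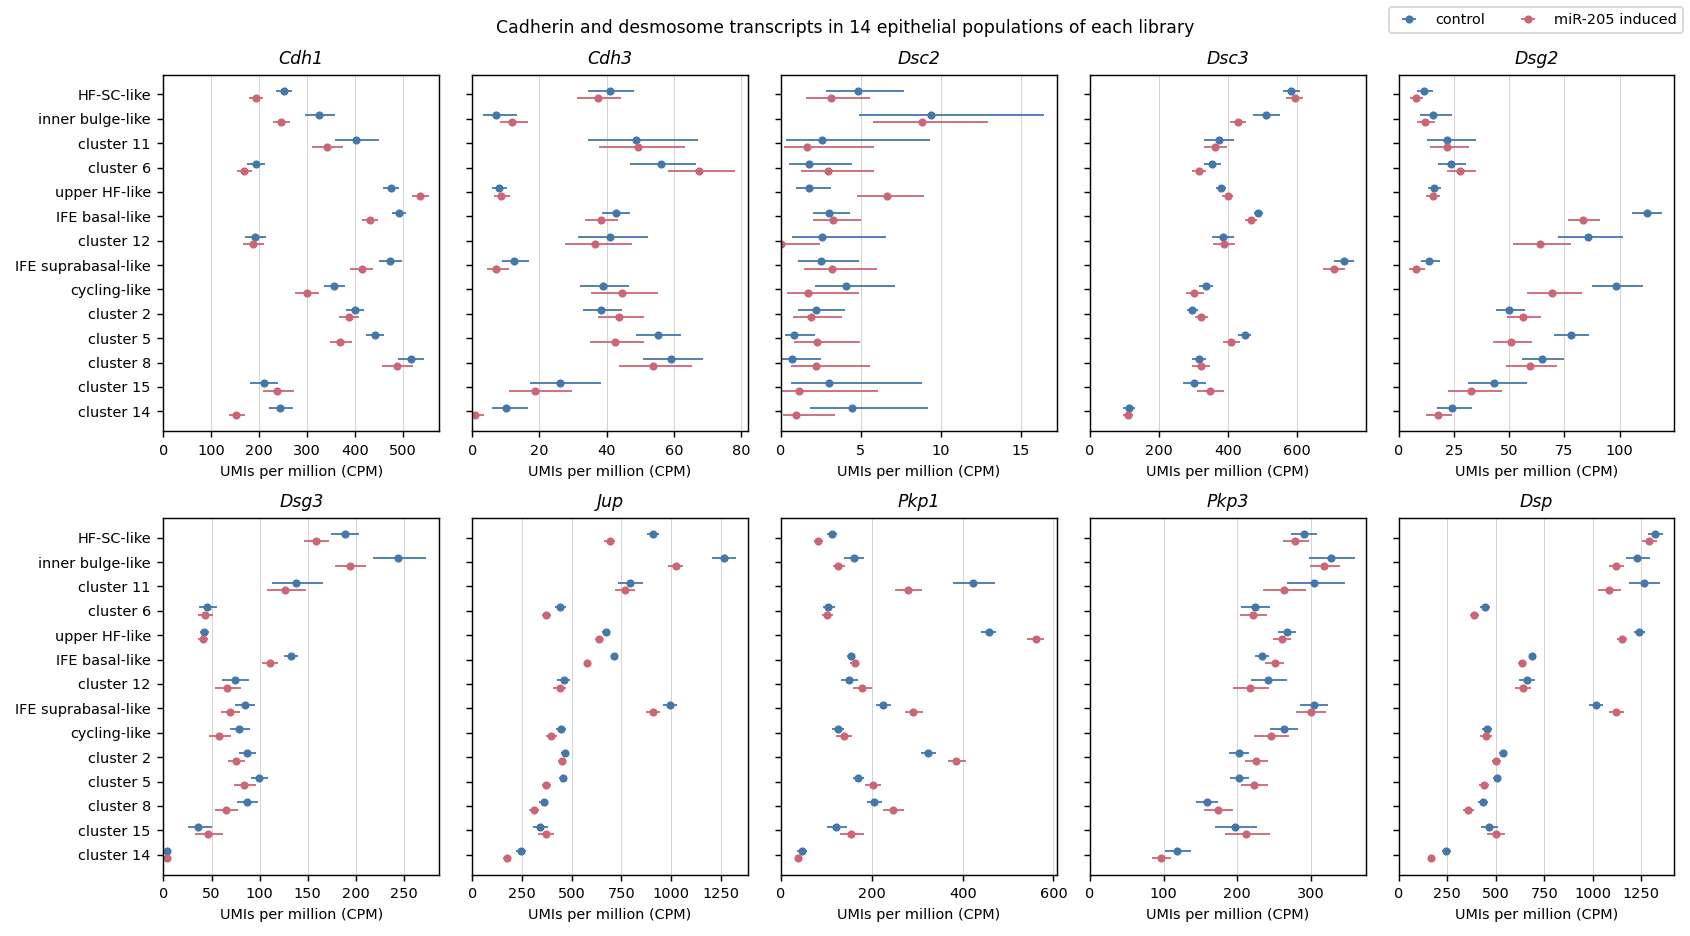
Each panel plots 1 gene in CPM on a linear axis from 0 for 14 epithelial populations, with the control library in blue and the induced library in red and bars for exact 95% counting intervals. Dsp and Jup are high in HF-SC-like and inner bulge-like cells, and Dsg2 is highest in IFE basal-like cells (112 and 83.5 CPM). Cdh3 has its highest mean over the libraries in cluster 6 (56.1 and 67.6 CPM), with a range that overlaps that of cluster 8.

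Outside the epithelium the levels varied. In fibroblast-like cells Dsp was at 33.5 and 55.0 CPM, Jup at 65.0 and 61.5 CPM and Cdh1 at 19.1 and 23.7 CPM, and Dsc2 gave no UMI. Cdh1 was at 126 and 77.3 CPM in T cell-like cells and at 94.1 and 150 CPM in the Cd207-positive cluster of Langerhans or antigen-presenting-like cells. Several other non-epithelial populations were above the fibroblast-like level as well, with Cdh1 at 101 and 84.0 CPM in melanocyte-like, 93.4 and 93.7 CPM in Schwann-like and 74.2 and 36.5 CPM in endothelial-like cells. In the small cluster 17, led by T cell genes, the control library had Cdh1 and Dsp at 277 CPM each (20 UMIs) and Jup at 512 CPM (37 UMIs), against 65.9, 107 and 78.1 CPM in the induced library. In unthinned cells a Cdh1 UMI was found in 46.4% and 28.6% of T cell-like cells (median depths 4414.5 and 5113 UMIs) against 9.76% and 8.59% of the deeper fibroblast-like cells (11303 and 11123 UMIs). Melanocyte-like cells, 24 and 29 in number, had Cdh3 at 56.2 and 146 CPM from 5 and 26 UMIs, against 56.1 and 67.6 CPM in cluster 6. Their Dsp, at 146 and 56.0 CPM, was below the lowest epithelial level in each library, that of cluster 14.

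Shares of cells with a UMI followed these levels when every cell was thinned to 5000 UMIs. Among HF-SC-like cells, Dsp was found in 99.1% of 336 control and 98.8% of 341 induced cells, and Dsg2 in 5.06% and 3.52%. In IFE basal-like cells Dsg2 was found in 43.5% of 577 control and 34.4% of 349 induced cells. In fibroblast-like cells, taken as background, the thinned shares for Dsg2 were 1.79% and 1.36%, and for Dsp 5.36% and 8.84%. The exact 95% intervals of the Dsg2 share in HF-SC-like cells (2.97% to 7.98% and 1.83% to 6.07%) overlapped those in fibroblast-like cells (0.217% to 6.30% and 0.165% to 4.83%), so a share above background was not resolved there. Without thinning, 76.6% and 63.0% of IFE basal-like cells held a Dsg2 UMI. Among the shares recomputed without thinning, 99 lay outside the interval of the thinned share and 21 within it.

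The design also allows adhesion genes to be compared between layers and niches within each mouse, where the control and the induced library give 1 value each. From the basal to the suprabasal epidermis, Dsg2, Cdh3 and Dsg3 were lower, and Dsc3 and the plaque proteins Dsp, Jup, Pkp1 and Pkp3 higher. Dsg2 was lower in IFE suprabasal-like than in IFE basal-like cells by log2 ratios of -3.00 (interval -3.48 to -2.58) in the control and -3.40 (-4.12 to -2.82) in the induced library. Cdh3 gave -1.78 and -2.41 and Dsg3 -0.65 and -0.67 on the same scale. Dsp was higher by 0.57 and 0.82, Jup by 0.48 and 0.65, Pkp1 by 0.55 and 0.85, Pkp3 by 0.38 and 0.26 and Dsc3 by 0.59 and 0.60. Cdh1 gave -0.05 and -0.06, with intervals that covered 0 in both libraries. For all 8 genes other than Cdh1 and Dsc2 the direction was the same in both mice, with intervals clear of 0. Some other desmosome genes, picked after their values were seen, were higher in suprabasal-like cells. They were Dsg1a, the desmoglein of the upper epidermis, by 1.84 and 1.86, and the plakins Evpl by 1.25 and 1.28 and Ppl by 0.80 and 1.04. The rest of that list is not described for this comparison.

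HF-SC-like cells differed from IFE basal-like cells in the levels of most of these genes, some higher and others lower. Dsp was higher in HF-SC-like cells by log2 ratios of 0.95 and 1.02, Dsg3 by 0.51 and 0.52, Jup by 0.35 and 0.26 and Dsc3 by 0.26 and 0.34. Dsg2 was lower by -3.29 and -3.43, Cdh1 by -0.97 and -1.16 and Pkp1 by -0.45 and -0.99. Cdh3 gave -0.06 and -0.03, with intervals from -0.34 to 0.21 and from -0.35 to 0.28. Within both libraries, therefore, desmoplakin transcripts were more abundant and E-cadherin and desmoglein 2 transcripts less abundant in HF-SC-like than in IFE basal-like cells.

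Cluster 6, chosen by its mean hair germ marker fold among clusters not low in Krt14, was set beside the HF-SC-like cells. Dsg3 gave log2 ratios of -2.04 in the control and -1.88 in the induced library, Dsp -1.57 and -1.73 and Jup -1.04 and -0.89. Dsc3 gave -0.72 and -0.91, Pkp3 -0.37 and -0.33 and Cdh1 -0.38 and -0.19. Cdh3 was higher in cluster 6 by 0.45 and 0.86 and Dsg2 by 1.05 and 1.84. Pkp1 gave -0.11 (-0.35 to 0.13) and 0.32 (0.07 to 0.56), so a direction was resolved only in the induced library. The inner bulge-like cells differed less than cluster 6 from the HF-SC-like cells in Dsg3, Dsp, Jup, Dsc3 and Pkp3, and more in Cdh3 and Pkp1. They had more Jup (0.48 and 0.56), Pkp1 (0.51 and 0.63), Cdh1 (0.37 and 0.35) and Dsg3 (0.38 and 0.29), less Dsc3 (-0.19 and -0.47) and less Cdh3 (-2.47 and -1.64). These differences are descriptions, since the populations were built from the same cells, although none of the 10 genes was used to build them.

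**Figure D2:**
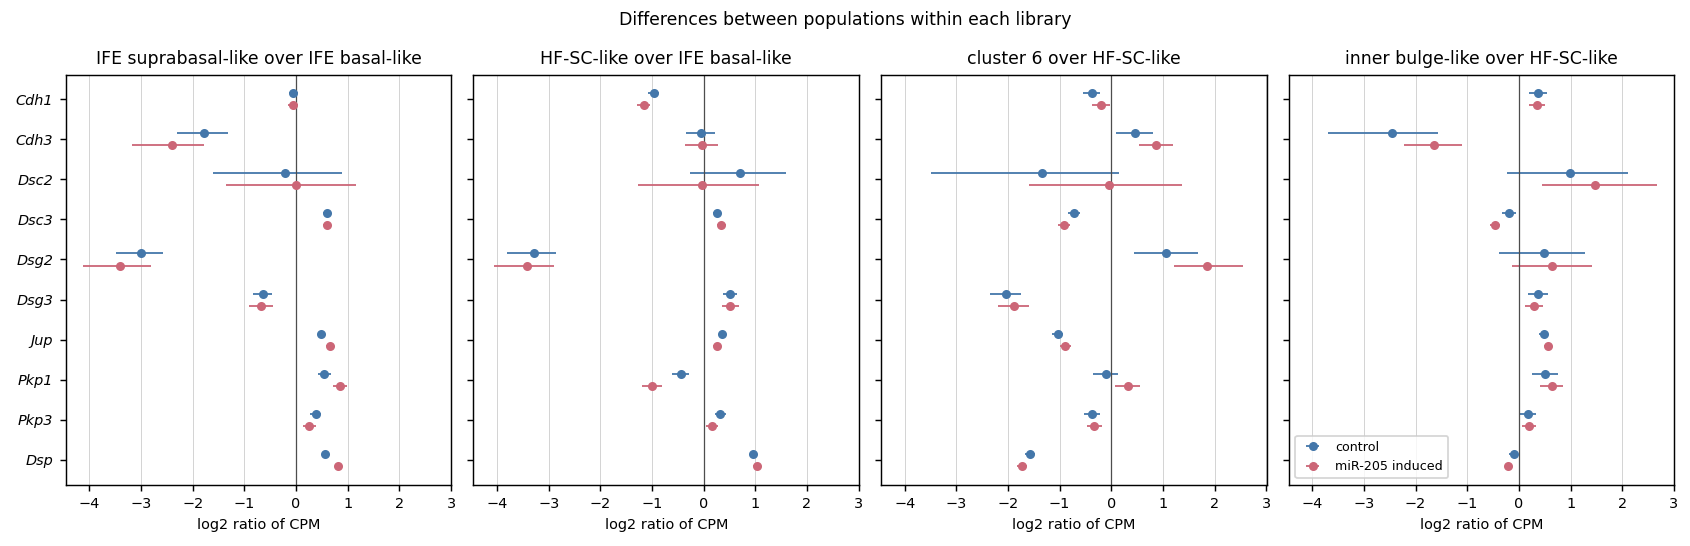
Each panel plots, for the 10 genes, the log2 ratio of CPM between 2 populations, with the control library in blue, the induced library in red and exact 95% counting intervals as bars. Dsg2 lies furthest below 0 for IFE suprabasal-like over IFE basal-like cells (-3.00 and -3.40), and Dsp at -1.57 and -1.73 for cluster 6 over HF-SC-like cells.

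Over the 16 populations with at least 50 cells in each library, the mean log2(CPM + 1) of Dsp was most like that of Jup among 10802 genes with at least 200 UMIs, with Pearson r of 0.98. Next to Dsp came Dmkn and Lad1 (0.96 each), and next to Jup came Tiam1 (0.97) and Map3k9 (0.96). Pkp3 and Dsc3 were also near each other (0.97), with Lad1 the nearest gene to Pkp3 (0.98) and second to Dsc3 (0.97). Cdh1 was nearest to Serinc2, Cldn1 and Tpd52 (0.95 each), where Cldn1 is a tight junction claudin. Cdh3 was nearest to Bnc1, Itga3 and Frem2 (0.92, 0.92 and 0.90), Dsg2 to Card10, Rbbp8 and Snrpd3 (0.92, 0.92 and 0.90), Dsg3 to Ppp1r14c, Dennd2c and Wdr47 (0.95, 0.94 and 0.93) and Pkp1 to Cwh43, Clip4 and Arap2 (0.96, 0.94 and 0.94). For Dsc2 the highest values were lower, at 0.80 for Erc1, 0.77 for Fgd4 and 0.76 for Vezt. Among the members themselves Dsg2 and Dsc2 gave -0.07 and Dsg2 and Jup 0.41. All populations come from the same 2 libraries and include non-epithelial ones low in most of these genes, so the values describe a shared pattern and carry no test.

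The comparison of the induced with the control library asked how miR-205 induction changed expression in the follicle and the epidermis. In HF-SC-like cells (360 control and 355 induced), Jup stood at 908 CPM in the control and 691 CPM in the induced library, a log2 ratio of -0.39 (interval -0.47 to -0.32, with 0.5 UMIs added to each count). Cdh1 was at 252 and 192 CPM, a ratio of -0.39 (-0.53 to -0.24), and Pkp1 at 113 and 81.4 CPM, a ratio of -0.47 (-0.69 to -0.24). Dsg3 was also lower, at 189 and 159 CPM (-0.25, -0.41 to -0.09). The other well counted genes were close in the 2 libraries, with Dsp at -0.03 (-0.09 to 0.03), Dsc3 at 0.02 (-0.06 to 0.11) and Pkp3 at -0.06 (-0.19 to 0.07). Cdh3, at -0.14 (-0.49 to 0.21), was not resolved at this depth.

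By a fold of 1.2 in CPM, 3 of the 8 members with at least 100 UMIs were lower in the induced HF-SC-like cells and 0 were higher, where 16.8% of all 5730 genes with that many UMIs were lower and 25.7% were higher. The median log2 ratio of those 8 was -0.19, against 0.05 for all genes. At a fold of 1.5, 0 members and 4.50% of all genes were lower. Dsc2 (17 and 11 UMIs) and Dsg2 (40 and 27 UMIs) fell short of 100 UMIs. The HF-SC-like population joined 2 clusters. In the larger one, with 330 and 296 cells, Jup was at 948 and 727 CPM and Cdh1 at 258 and 196 CPM. In the smaller one, with 30 and 59 cells, Jup was higher in the induced library, at 293 and 462 CPM (0.65, 0.25 to 1.09), and Dsp too, at 892 and 1227 CPM (0.46, 0.22 to 0.70). The joint values therefore follow the larger cluster. The summed HF-SC markers in this population, all 7 detected in both libraries, stood at 12288 CPM in the control and 15958 CPM in the induced library, while the 7 IFE basal markers, all detected, stood at 17862 and 15287 CPM. The 8 sebaceous gland markers, of which Pparg was at 0 in both, stood at 148 and 74.3 CPM, and the summed hair germ markers were also lower in the induced library. The part of these levels in the ratios was not tested.

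In inner bulge-like cells (169 control and 381 induced) the same genes were lower, with Cdh1 at 325 and 245 CPM (-0.41, -0.58 to -0.23), Pkp1 at 160 and 126 CPM (-0.34, -0.59 to -0.09) and Jup at 1264 and 1022 CPM (-0.31, -0.39 to -0.22). Dsg3 at 244 and 194 CPM (-0.33, -0.53 to -0.13) and Dsc3 at 512 and 429 CPM (-0.25, -0.39 to -0.11) were also lower. Of the 7 members with 100 UMIs, 4 were lower by the fold of 1.2 and 0 were higher, against 14.5% and 20% of all genes. Their median was -0.31 and that of all genes 0.01. Cdh3 (9 and 35 UMIs), Dsc2 (12 and 26) and Dsg2 (20 and 35) were below the limit.

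In cluster 6, Jup was at 442 and 373 CPM (-0.25, -0.37 to -0.12), Dsp at 444 and 388 CPM (-0.19, -0.32 to -0.07), Dsc3 at 355 and 316 CPM (-0.17, -0.31 to -0.03) and Cdh1 at 193 and 169 CPM (-0.20). Cdh3 was at 56.1 and 67.6 CPM (0.27), with an interval from -0.06 to 0.61, and the ratio turned to -0.39 among cells with under 5% mitochondrial UMIs. By the fold of 1.2, 0 of 9 members were lower and 1, Cdh3, was higher, where 24.7% of all genes were lower and 21.6% higher. Cells chosen by an Lgr5 UMI and no Krt24 UMI instead gave 5 lower members of 9, where 24.8% of all genes were lower. Of the 225 control and 203 induced cells chosen in that way, 58.7% and 69.5% lay in cluster 6, so they were partly other cells. The make-up of cluster 6 moved between the libraries as well. Its 8 hair germ markers, all detected in both, summed to 1366 CPM in the control and 604 CPM in the induced library. Its 5 smooth muscle markers, of which Rgs5 was at 0 in both and Des at 0 in the induced library, summed to 49.1 and 319 CPM. The part of that shift in the ratios was not tested.

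IFE basal-like cells (585 control and 354 induced) had lower Dsg2, at 112 and 83.5 CPM (-0.42, -0.58 to -0.27), lower Jup, at 713 and 579 CPM (-0.30, -0.36 to -0.24), and lower Dsg3, at 133 and 111 CPM (-0.26, -0.40 to -0.13). Cdh1 was at 492 and 431 CPM (-0.19, -0.26 to -0.12) and Dsp at 686 and 635 CPM (-0.11, -0.17 to -0.05). The plakophilins did not go with them, since Pkp1 gave 0.08 (-0.04 to 0.20) and Pkp3 0.10 (0.01 to 0.20). By the fold of 1.2, 2 of 9 members were lower and 0 higher, against 13% and 16.4% of all genes, with medians of -0.16 for the members and 0.01 for all genes. Dsc2, at 29 and 20 UMIs, was the member left out.

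In IFE suprabasal-like cells (175 and 147), Pkp1 was higher, at 225 and 292 CPM (0.38, 0.23 to 0.52), and Dsp slightly so, at 1017 and 1121 CPM (0.14, 0.07 to 0.21). Cdh1 was at 474 and 414 CPM (-0.20, -0.31 to -0.09) and Jup at 994 and 910 CPM (-0.13, -0.20 to -0.05). By the fold of 1.2, 1 of 7 members was lower (Dsg3, 84.6 and 69.3 CPM) and 1 higher (Pkp1), near the background of 20% lower and 17.5% higher. The medians were -0.06 for the members and -0.02 for all genes. Cdh3 (40 and 20 UMIs), Dsc2 (8 and 9) and Dsg2 (45 and 22) were below the limit. The 6 IFE suprabasal markers summed to 14242 CPM in the control and 18975 CPM in the induced library and the 7 IFE basal markers to 14591 and 11878 CPM, all of them detected, and their part in these ratios was not tested.

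In upper HF-like cells (452 and 401), Pkp1 was higher too, at 457 and 561 CPM (0.29, 0.23 to 0.36), and Cdh1 was higher, at 475 and 536 CPM (0.17, 0.11 to 0.24). Dsp gave -0.11 (-0.15 to -0.06) and Jup -0.08 (-0.14 to -0.02). By the fold of 1.2, 0 of 9 members were lower and 1 was higher, against 10.4% and 15.8% of all genes, with medians of -0.04 and 0.03. Dsc2 rested on 12 UMIs in the control and 42 in the induced library, a ratio of 1.86 (0.95 to 2.96), and the 5 cells with the most Dsc2 UMIs held 58.3% and 66.7% of them.

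**Figure D3:**
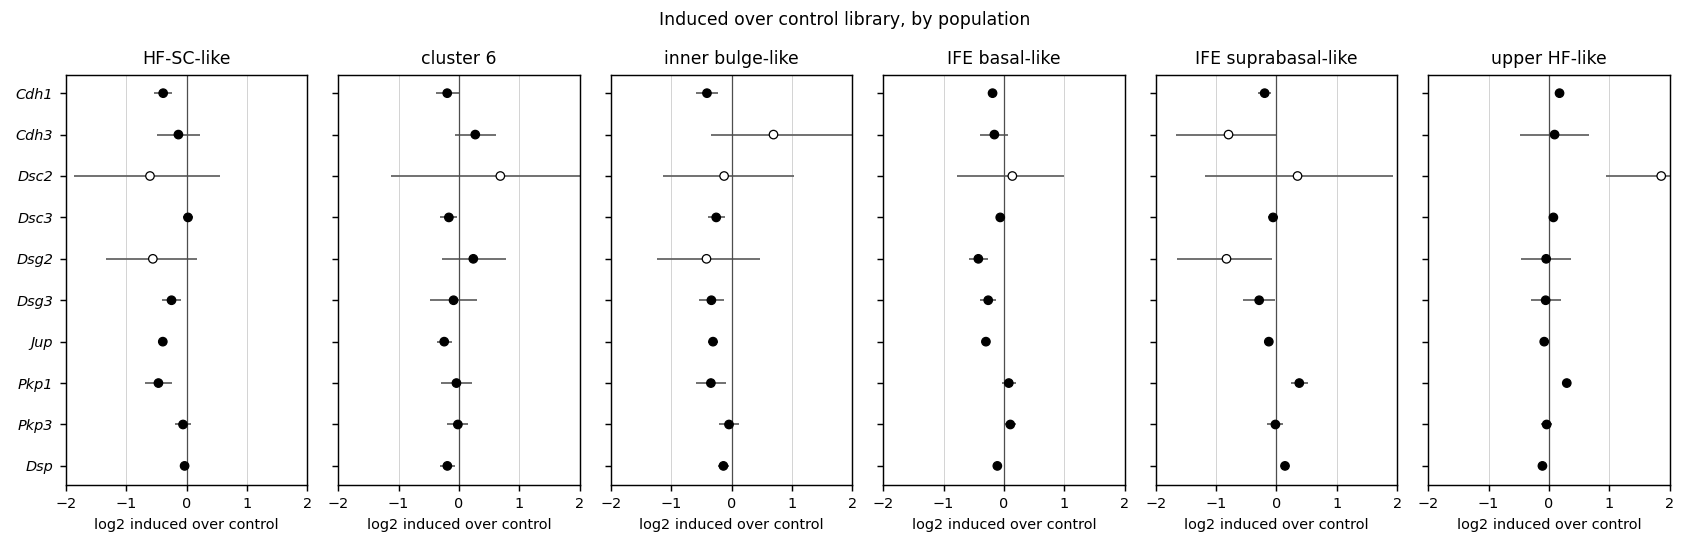
Each panel plots, for 1 population, the log2 ratio of the induced over the control library for the 10 genes, with exact 95% counting intervals as bars, cut at the axis ends, and open circles for genes with under 100 UMIs. Jup lies below 0 in all 6 panels, and Pkp1 lies at -0.47 in HF-SC-like and at 0.38 in IFE suprabasal-like cells.

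Over all 14 epithelial populations, Jup was lower in the induced library in 13, with intervals clear of 0 in 10, and its median ratio was -0.19. Cdh1, Dsp, Dsg2 and Dsg3 were each lower in 12, with intervals clear of 0 on the lower side in 9, 9, 5 and 7 populations and medians of -0.20, -0.11, -0.42 and -0.22. At ranks 1 to 4 of its levels, Dsg2 was lower with intervals clear of 0. These were IFE basal-like cells, cycling-like cells (98.3 and 69.5 CPM), cluster 12 (85.8 and 63.9 CPM) and cluster 5 (77.9 and 50.9 CPM). Cluster 8 (64.7 and 59.2 CPM, -0.13, -0.48 to 0.22) and cluster 2 (50.1 and 56.2 CPM, 0.17, -0.11 to 0.44) came next and were not resolved. Pkp1 was higher in 9, with intervals clear of 0 in 5, and lower in 5, with intervals clear of 0 in 3. Its median was 0.20. The lower values clear of 0 lay in HF-SC-like and inner bulge-like cells and cluster 11 (423 and 280 CPM, -0.60). In clusters 14 and 6 the lower values had intervals that covered 0. Its higher values lay in the other 9, among them IFE suprabasal-like and upper HF-like cells. Pkp3 (median -0.03), Dsc3 (-0.04) and Cdh3 (-0.14) had no common direction, and Dsc2 was lower in 8 and higher in 6 on few UMIs. The populations share 2 libraries and are not replicates of the induction.

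**Figure D4:**
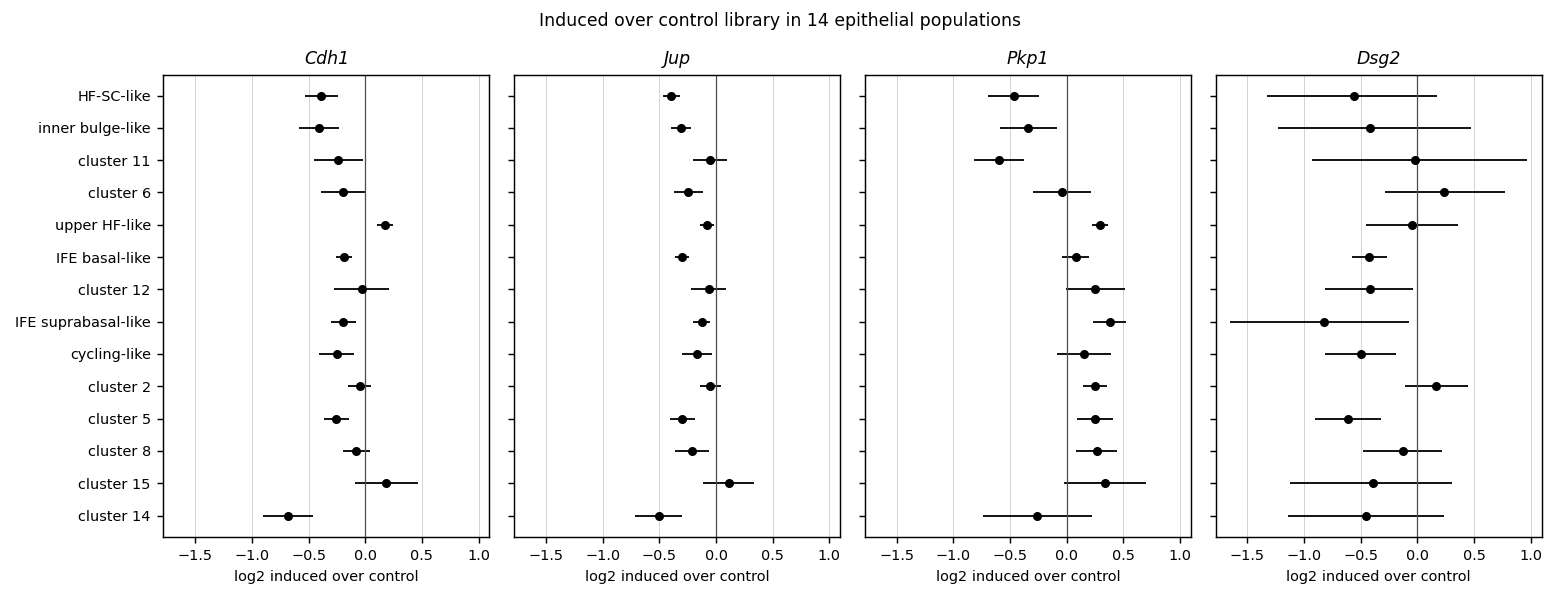
The panels plot the log2 ratio of the induced over the control library for Cdh1, Jup, Pkp1 and Dsg2 in 14 epithelial populations, with exact 95% counting intervals as bars. Jup lies below 0 in 13 populations and Pkp1 above 0 in 9.

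Other adhesion genes were taken from lists and described in the same way. Of 13 adherens junction partners, 11 had at least 100 UMIs in HF-SC-like cells, where 6 were lower and 1 higher by the fold of 1.2, with a median of -0.27. Vcl (vinculin), which reinforces cadherin links to actin, stood at 132 and 74.1 CPM in HF-SC-like cells (-0.84, -1.06 to -0.62) and at 97.9 and 49.5 CPM in inner bulge-like cells (-0.98, -1.34 to -0.63). The catenins Ctnnd1 (92.1 and 65.9 CPM, -0.48) and Ctnna1 (336 and 270 CPM, -0.32) were lower in HF-SC-like cells and Ctnnb1 was at 342 and 345 CPM. All genes gave 16.8% lower there. The partners lower by that fold were 1 of 11 in inner bulge-like cells (14.5% of all genes), 2 of 10 in cluster 6 (24.7%) and 2 of 10 in IFE basal-like cells (13%). They were 3 of 9 in IFE suprabasal-like (20%) and 1 of 12 in upper HF-like cells (10.4%). In cluster 14 the median of the partners was -0.50, against -0.04 for all genes.

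Past a fold of 1.5, Ajuba was higher in IFE basal-like (8.94 and 14.97 CPM) and upper HF-like cells (8.86 and 15.8 CPM), and Nectin4 was higher (45.1 and 77.1 CPM) and Lima1 lower (174 and 106 CPM) in IFE suprabasal-like cells. Of 11 other desmosome genes, 5 had 100 UMIs in HF-SC-like cells, of which 3 were higher and 0 lower, with a median of 0.31, against 25.7% higher, 16.8% lower and a median of 0.05 for all genes. Perp, a membrane protein of desmosomes, was at 1801 and 2261 CPM there (0.33, 0.28 to 0.38) and at 1043 and 1245 CPM in cluster 6, but at 2334 and 2164 CPM in IFE basal-like cells. Evpl was lower past that fold in inner bulge-like cells (47.0 and 29.9 CPM) and cluster 6 (46.1 and 30.7 CPM), and Pkp4 in cluster 6 (69.1 and 42.1 CPM). Of 8 other cadherins, at most 2 reached 100 UMIs in any of the 6 populations, with Cdh4 at 22.9 and 12.5 CPM in IFE basal-like and Cdh13 at 6.65 and 10.9 CPM in upper HF-like cells.

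The 3' untranslated regions (UTRs) of the members were searched for ATGAAGG, the complement of the 7-base seed of miR-205-5p shown above, on the transcript strand. Of the 10 members 2 held it, Dsg2 at bases 323 to 329 and 1189 to 1195 of a UTR of 2377 bases and Dsc2 at bases 877 to 883 of 3121. The share was 20% of the members, 28% of 25 adhesion list genes and 12.2% of 9631 genes with at least 200 UMIs. The median UTR lengths were 1544.5, 1319 and 1206 bases in the same order, and the shares were not adjusted for length. The UTRs came from an older annotation (GENCODE M1 on NCBIM37) and were read by transcript. A match describes the letters and does not show that miR-205 acts there.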

How the data were processed

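The authors aligned and counted the reads with Cell Ranger, and the labels name mm10; the matrix header gives software version 3.0.1. The deposited values are raw UMI counts per gene and barcode without normalization, from 1 library per mouse. The 10 genes, the adhesion lists and the comparisons were chosen with earlier results of these data known.

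Cells were kept by the filter of the study's methods, which asks for over 200 detected genes, below 5000 of them, and under 10% mitochondrial UMIs. Doublets were not removed for the main results. Scrublet in scanpy 1.11.5 called 4 and 5 barcodes, and these calls were not used. The setting without the highest doublet scores left out the 124 control and 105 induced cells with the highest Scrublet scores. The libraries were integrated in Seurat 5.3.0 (R 4.3.3) on 30 dimensions from 2000 variable genes and clustered by Louvain at resolution 0.8, with the 10 genes and the adhesion lists withheld from the variable genes. A cluster was named when at least 3 markers with at least 20 UMIs were raised at least 2-fold, at least 1 of them was among its top 10 genes by fold, and no other class had more there. After the data were seen, a hair germ name was dropped where Lgr5 was not raised 2-fold. A name such as smooth muscle or fibroblast was dropped where Krt14 was not low. Clusters 6 and 11 kept their numbers under these rules. Also after the data were seen, the HF-SC-like population was split into its clusters, and clusters of other settings were matched to the population holding most of their cells.

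UMIs were summed per population and library and divided by the population's total. Ratios added 0.5 UMIs to each count. Intervals were exact Poisson for levels, exact conditional binomial for ratios and Clopper-Pearson for shares, at 95%, and cover counting error only. The fold of 1.2 and the limit of 100 UMIs over both libraries stand in for a test, since 1 library per group allows none. All 10 genes are named; list genes are named past a fold of 1.5 with at least 100 UMIs, and a few further list genes (Ctnnd1, Ctnna1, Ctnnb1, Perp, Dsg1a, Evpl, Ppl and Dsc1) were named after their values were seen. For each gene the 3 others with the highest Pearson r were named. Python 3.11.15, numpy 2.4.6, pandas 2.3.3 and scipy 1.17.1 were used, and the ratio and its interval were tested on simulated data.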

Additional observations from a re-analysis of the deposited data

Results flagged for a closer look

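Among the 6 populations described, Pkp1, Cdh1 and Dsp differed in direction by more than counting error. The share of all genes that do so was not computed, so their number is not read as a result. The difference between populations was not tested, since each value compares 1 control with 1 induced library. Pkp1 gave log2 ratios of -0.47 in HF-SC-like and -0.34 in inner bulge-like cells, against 0.29 in upper HF-like and 0.38 in IFE suprabasal-like cells. Cdh1 gave -0.39 in HF-SC-like cells, -0.41 in inner bulge-like cells, -0.20 in cluster 6, -0.19 in IFE basal-like and -0.20 in IFE suprabasal-like cells, against 0.17 in upper HF-like cells. Dsp gave -0.11 in IFE basal-like and in upper HF-like cells, -0.13 in inner bulge-like cells and -0.19 in cluster 6, against 0.14 in IFE suprabasal-like cells. Some of these values came near 0 under the other processing settings described below. Dsp ranged from 0.01 to 0.17 in IFE suprabasal-like and from -0.13 to -0.003 in upper HF-like cells, but from -0.13 to -0.08 in IFE basal-like cells. Cdh1 ranged from -0.25 to -0.04 in IFE suprabasal-like cells.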

How the results depend on the processing

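Values were recomputed 1564 times for 256 results under 15 settings. Of these, 1355 stayed within a band set for their kind, 199 left it and 10 turned in sign from a ratio of at least 1.2-fold. A further 35 ratios between libraries and 6 between populations turned from a value under that fold, among them Pkp3, Pkp1, Dsg3 and Dsp. The band was the counting interval for ratios between libraries and for shares. For differences between populations it was the joint span of both libraries' intervals. For the members' medians it was the span of their ratios without the lowest and the highest. Counts and percentages were allowed 1.5 times, and medians of all genes a fixed distance. Of the 199, 99 were shares recomputed without thinning. Of the values of at least 1.2-fold, Dsc2 turned to 0.0225 in HF-SC-like cells with marker UMI gates, to -0.0659 in cluster 6 with under 5% mitochondrial UMIs, to -0.59 with cells thinned to 5000 UMIs and to -1.19 with gates. In IFE suprabasal-like cells Dsc2 turned to -0.81 with under 5% mitochondrial UMIs, to -0.13 with the list genes kept among the variable genes and to -0.54 without the 5 highest cells. Cdh3 turned to -0.39 in cluster 6 and to -1.65 in inner bulge-like cells with under 5% mitochondrial UMIs, and Dsg2 to 0.39 in inner bulge-like cells with thinned cells.

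The median ratio of the members moved to -0.24 (under 5% mitochondrial UMIs) and -0.29 (gates) in cluster 6 and to -0.76 (under 5% mitochondrial UMIs) in inner bulge-like cells. Over the settings it ranged from -0.32 to -0.14 in HF-SC-like, -0.76 to -0.25 in inner bulge-like, -0.29 to -0.01 in cluster 6, -0.20 to -0.11 in IFE basal-like and -0.16 to -0.02 in IFE suprabasal-like cells, and changed sign only in upper HF-like cells (-0.06 to 0.03). The cause of these moves was not tested. The marker gates chose partly other cells. Of the gated control and induced cells, 96.4% and 94.1% lay in the HF-SC-like population. The shares were 58.7% and 69.5% for cluster 6, 53.8% and 50.8% for IFE suprabasal-like and 51.1% and 45.7% for IFE basal-like cells.

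The number of lower members was 0 in HF-SC-like, inner bulge-like, IFE basal-like and IFE suprabasal-like cells at a fold of 1.5, and 5 in HF-SC-like and 3 in IFE suprabasal-like cells with at least 20 UMIs. In cluster 6 it was 3 with under 5% mitochondrial UMIs, 5 with gates and 1 without the highest doublet scores, with the mean over cells or with thinned cells. In IFE suprabasal-like cells it was 2 with gates and 0 without the highest doublet scores, without mitochondrial and ribosomal protein genes in the total, with the mean over cells or with thinned cells, and in upper HF-like cells 1 with thinned cells. Over the settings at a fold of 1.2, 15.5% to 26.1% of all genes were lower in HF-SC-like cells, 14.1% to 24.3% in inner bulge-like cells, 20.3% to 33.5% in cluster 6, 10.8% to 16.5% in IFE basal-like, 14.8% to 22.9% in IFE suprabasal-like and 9.72% to 14.4% in upper HF-like cells. The number of higher members in cluster 6 was 0 with under 5% mitochondrial UMIs, at resolution 1.2, with list genes kept or at a fold of 1.5, and 2 without mitochondrial and ribosomal protein genes in the total, with median-of-ratios size factors or with the mean over cells. It was 1 in inner bulge-like cells with at least 20 UMIs and in IFE basal-like cells with gates. It was 0 in IFE suprabasal-like cells with under 5% mitochondrial UMIs, with the mean over cells or at a fold of 1.5, and in upper HF-like cells 0 at a fold of 1.5 and 2 with at least 20 UMIs. Over those settings 13.6% to 33% of all genes were higher in the 6 populations. At a fold of 1.5, 1.80% to 6.24% of all genes were lower and 3.08% to 7.50% higher.

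With 1 mouse per group, variation between mice was not estimated and no library was left out. Dsc2, and Cdh3 and Dsg2 outside basal populations, were limited by depth. No paired analysis was possible because each group has 1 library and no value came from a test.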
